A study of Mus musculus with 12 samples.

Results

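The genes described here encode the working parts of the lysosome. They are 28 mouse genes chosen by function: cathepsins and other lysosomal proteases, 2 protease inhibitors of the cystatin family, lysosomal glycosidases with the saposin precursor, lysosomal membrane and cholesterol-handling proteins, 2 subunits of the proton pump, and the autophagy receptor Sqstm1. Of the 28 genes, 25 were measured, among 10365 genes tested in all, and 22 of the 25 were detected on all 12 arrays. Ctsk, Ctso and Ctss did not pass the filter, since each was detected on at most 1 array.

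RNA came from iTICs, breast cancer cells described as tumor-initiating that had been immortalized, and was read on Illumina mouse BeadChips. The hypoxic group (3 arrays) was grown in serum-free mammary stem cell medium on an MEBM base with 2% Cultrex, a basement membrane extract, at 3% oxygen. The normoxic groups were moved to standard medium on a DMEM base at 21% oxygen for 1, 2, 3, 4, 5 or 6 days (1 array each) or for 7 days (3 arrays). Oxygen and medium changed together, so their effects cannot be told apart. All groups were 1 immortalized cell source, with no further genotype or strain label, and no label calls the replicates separate cultures. The error behind each p-value is therefore that among these arrays and may be technical. Day 7 and days 1 to 3 were both compared with the same 3 hypoxic arrays. The error of both comparisons comes from the spread within the hypoxic and day 7 triplicates, since days 1 to 6 have 1 array each. The spread among the arrays of days 1 to 3 does not enter it.

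Lysosomes are acidic organelles in which hydrolases break down protein, glycan and lipid delivered by endocytosis and autophagy. Most of these hydrolases carry a sugar tag that sorts them from the Golgi, and cathepsins mature by cleavage in the acidic lumen that the vacuolar proton pump maintains. Cathepsins can also be secreted by tumour cells, where they cleave extracellular matrix. The transcription factors TFEB and TFE3 raise transcription of lysosomal genes through an E-box-like sequence called the CLEAR element.

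Values below are log2 signals after background correction and normalization, and differences are on the same scale. On each array, 34.3% to 37.7% of 45281 probes were detected. The arrays fall into 2 sets of 6 by the layout of the deposited tables: set a has the arrays of days 4 to 6, hypoxic array 3 and day 7 arrays 2 and 3, and set b has the rest. No label says what the sets are. The 2 deposited tables give 5 of the 6 arrays they share different names, and those of the larger table, which match the sample descriptions, were used throughout. For cells labelled as breast cancer, 9 of 10 mammary epithelial markers, among them Epcam, Krt8, Krt14 and Trp63, were detected on every array, and Krt19 was not measured.

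Promoter windows, 250 bases before to 50 after a start site, were found in RefSeq (GRCm38.p6) for 23 of the 28 genes and not for Ctsb, Ctsh, Npc1, Cstb and Atp6v1h. They were searched for sequences of the CLEAR and E-box kind, because most of these genes fell together over days 1 to 3. The CLEAR consensus, which is the core TCACGTGA with G before and C after it, was in 0 of 23 and in 0.326% of all 32851 windows. The core itself was in 5 of 23 genes (21.7%), against 1.12% of all genes with a window and 0.974% of windows. The E-box CACGTG, which every core holds, was in 10 of 23 (43.5%), against 8.09% of genes and 7.15% of windows. ACGTG, the core of the hypoxia response element, is part of every CACGTG, and was in 11 of 23 (47.8%), against 21.8% of genes and 19.6% of windows. These are reads of the letters on both strands and not evidence of binding. Genes with the core were Atp6v0d1, Ctsa, Ctsd, Gla and Mcoln1.
The windows printed are those of the 3 genes with the core that also passed the day 7 test, Ctsa (chr2:164833523-164833822, plus strand, its second start), Ctsd (chr7:142387778-142388077, minus strand) and Mcoln1 (chr8:3500269-3500568, plus strand). That of Lamp1 (chr8:13158911-13159210, plus strand) is shown with them for its 4 E-boxes and was chosen after its sequence was seen. Capitals mark TCACGTGA or, outside it, CACGTG.
Ctsa: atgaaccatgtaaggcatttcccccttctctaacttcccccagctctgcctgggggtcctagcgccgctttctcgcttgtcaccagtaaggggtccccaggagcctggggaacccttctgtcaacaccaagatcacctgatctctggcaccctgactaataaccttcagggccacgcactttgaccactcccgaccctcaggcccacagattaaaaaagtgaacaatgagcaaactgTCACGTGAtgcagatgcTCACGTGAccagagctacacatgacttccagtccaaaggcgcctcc
Ctsd: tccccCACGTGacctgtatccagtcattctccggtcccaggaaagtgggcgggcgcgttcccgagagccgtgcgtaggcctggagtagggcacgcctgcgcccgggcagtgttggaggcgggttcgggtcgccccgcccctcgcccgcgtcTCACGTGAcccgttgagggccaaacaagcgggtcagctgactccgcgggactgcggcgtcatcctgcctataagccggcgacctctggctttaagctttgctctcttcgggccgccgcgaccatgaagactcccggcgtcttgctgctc
Mcoln1: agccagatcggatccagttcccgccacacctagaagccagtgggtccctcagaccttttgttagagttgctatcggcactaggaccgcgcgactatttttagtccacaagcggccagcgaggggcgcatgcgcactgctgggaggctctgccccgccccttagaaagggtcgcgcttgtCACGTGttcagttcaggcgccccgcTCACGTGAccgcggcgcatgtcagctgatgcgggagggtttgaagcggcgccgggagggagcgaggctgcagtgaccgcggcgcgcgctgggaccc
Lamp1: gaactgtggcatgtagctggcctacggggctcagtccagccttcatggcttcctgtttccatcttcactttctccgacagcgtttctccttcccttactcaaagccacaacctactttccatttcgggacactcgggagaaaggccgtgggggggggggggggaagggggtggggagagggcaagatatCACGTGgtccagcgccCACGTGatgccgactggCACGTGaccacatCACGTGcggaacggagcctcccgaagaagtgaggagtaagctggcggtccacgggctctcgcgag
The E-box letters CACGTG began 12 bases before and 6 bases after the Ctsa start, 245 and 98 bases before that of Ctsd, 71 and 45 before that of Mcoln1, and 61, 45, 28 and 15 before that of Lamp1. Genes with the core moved in different directions: on day 7 Ctsd rose, Ctsa and Mcoln1 fell, and Gla and Atp6v0d1 did not pass the test. Of the 16 genes with a window that fell over days 1 to 3, 7 held an E-box, where 10 of all 20 measured genes with a window did. The core was in 2 of those 16 and in 5 of those 20. The 16 are part of the 20, which leaves few genes to compare them with. Whether either sequence has a part in the falls was not tested.

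Over the first 3 days in normoxic medium most of the lysosomal genes fell. Of 25 measured, 18 fell and 2 rose (Cstb and Atp6v1h), where of all genes tested 54.9% were called, 29.2% as falls and 25.6% as rises. Their median change was -0.77, against -0.06 for all genes. The deepest falls were those of Hexa, a subunit of beta-hexosaminidase (-2.53 ± 0.19 SE, 5.79-fold lower), the protease Lgmn (-2.04 ± 0.17, 4.12-fold lower) and the peptidase Tpp1 (-1.86 ± 0.15, 3.62-fold lower). In bulk RNA, fewer cells of a type and less RNA per cell cannot be told apart. The fall was counted for 18 genes after each of 2 other scalings, for 16 to 18 when 1 array was left out, and for 16 within set b alone.

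By day 7 the genes had parted. Of the 25, 12 fell and 4 rose (Ctsf, Ctsd, Cstb and Atp6v1h), where 59.7% of all genes were called, 33.7% as falls and 25.9% as rises. The median was -0.26, against -0.11 for all genes. The 12 that fell on day 7 had also fallen over days 1 to 3: Ctsl, Ctsa, Lgmn, Tpp1, Glb1, Hexa, Neu1, Psap, Lamp1, Lamp2, Mcoln1 and Sqstm1. On all 9 normoxic arrays these 12 lay below every hypoxic array (22.2% of all genes did), and Cstb, Npc1 and Atp6v1h lay above (17.8%). For Npc1 this holds only for the probe used, since its other kept probes fell. Ctsb, Ctsh, Ctsz, Cst3 and Npc2 fell early and did not pass the test on day 7, and Ctsf fell early and rose on day 7. Between day 7 and hypoxic arrays alone, 13 genes did not overlap downward (37.5% of all genes) and 6 upward (28.6%), together 66% of all genes. The 6 include Npc1, again only by the probe used. The falls of Tpp1, Hexa, Lgmn and Psap and the rise of Ctsf were at least 2-fold.

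Scaling changed this balance: with arrays shifted to a common median of probes detected on all arrays, 8 rose and 9 fell, and all genes had a median of 0.09, while with a shift to the common median of all probes 4 rose and 11 fell, with a median of -0.31. The share of rises among all calls was 43.5%, 52.4% and 31.8% in these 3 scalings. Set a has 1 hypoxic array and set b has 1 day 7 array, so for day 7 within each set only differences are given. Within set a and set b they were 1.33 and 1.55 for Ctsf, 0.82 and 0.91 for Ctsd, and 0.86 and 0.67 for Cstb. Atp6v1h differed by 0.48 in each set. The genes called as falling on day 7 over all arrays had negative differences in both sets. Gla differed by 0 within set a and by 1.2 within set b, and Ctsc was lower within set a (-0.46) and higher within set b.

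**Figure D1:**
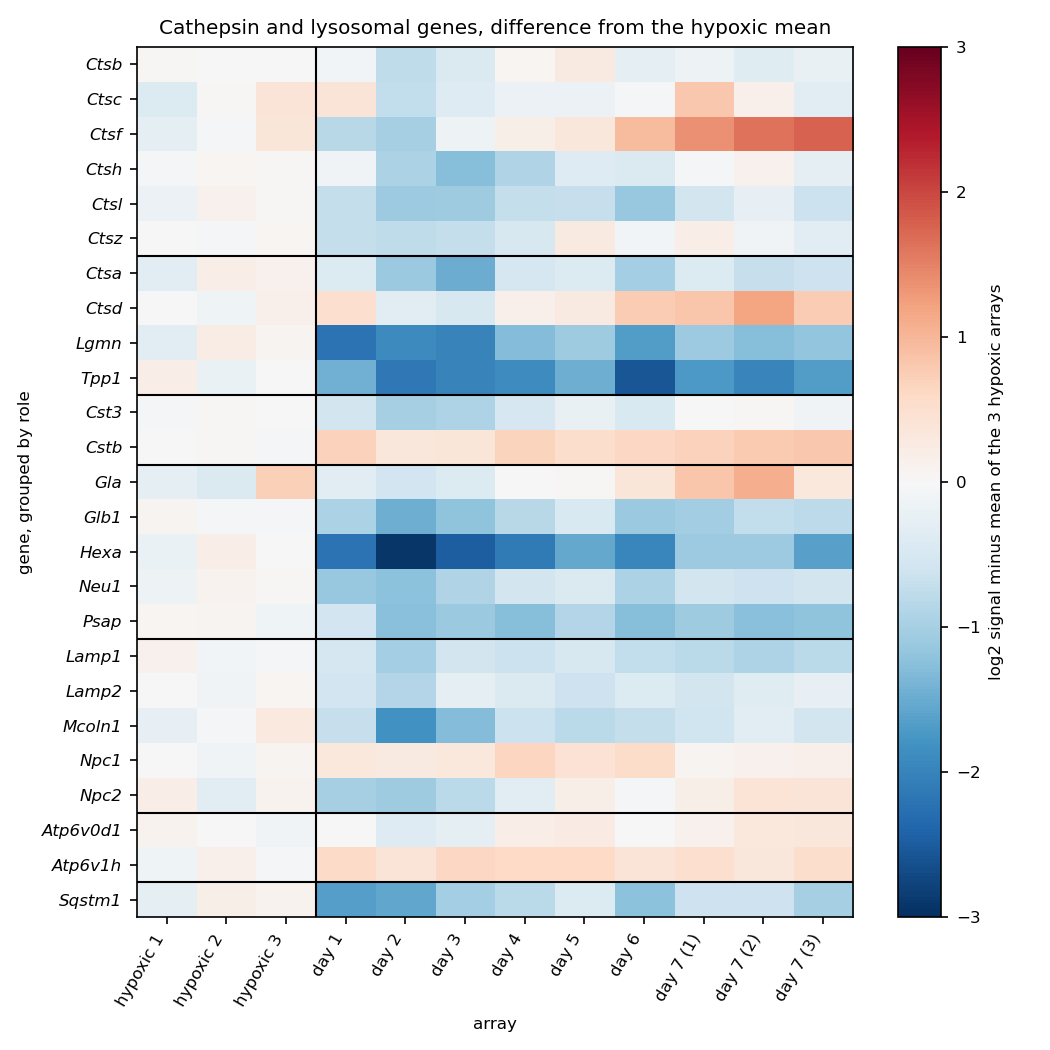
Each row is a gene and each column an array, and colour is the log2 signal minus the mean of the 3 hypoxic arrays. Hexa, Lgmn, Tpp1 and Sqstm1 are low on all 9 normoxic arrays, and Ctsf is low on days 1 and 2 and high on day 7.

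**Figure D2:**
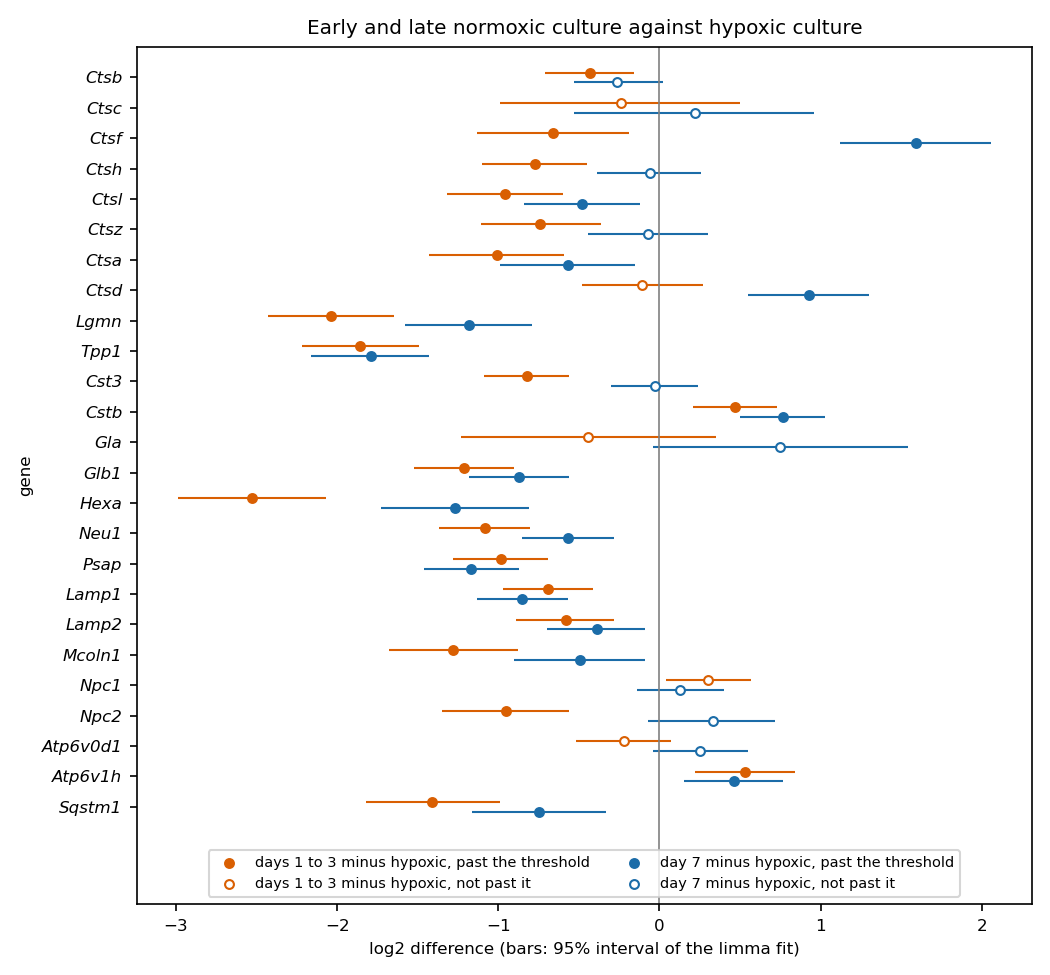
Points are the log2 difference from hypoxic culture for days 1 to 3 (orange) and day 7 (blue), with 95% intervals of the limma fit, and filled points passed an adjusted p of 0.05. For days 1 to 3, 18 filled points lie left of 0, and for day 7, 12 do.

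Within the normoxic days the changes that passed the test were all upward. The slope per day over the 9 normoxic arrays was called upward for 9 of 25 genes (16.5% of all genes) and downward for 0 (19%), with 35.5% of all genes called. The 9 were Ctsf, Ctsz, Ctsd, Lgmn, Cst3, Gla, Hexa, Npc2 and Sqstm1. With the sets as a block 4 remained, Ctsf, Gla, Hexa and Npc2, and within set a 0 and within set b 1 was called, from 5 and 4 normoxic arrays. Without the day 2 array 5 were called. The slope calls of Ctsz (adjusted p = 0.0644 without day 7 replicate 1, 0.0511 without day 1, 0.067 without day 2), Cst3 (0.0531 without day 2) and Lgmn (0.0615 without day 1) each rest on those arrays, and those of Ctsd and Sqstm1 were lost in 6 of the 9 leave-out fits each, with adjusted p-values of 0.0524 to 0.103 and 0.0515 to 0.209.

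Counts by role, here and below, stand beside 29.2% falls and 25.6% rises among all genes early, and 33.7% and 25.9% on day 7. Among cysteine cathepsins, 6 of 9 were measured, and over days 1 to 3 5 fell while on day 7 1 fell and 1 rose. Ctsf, a papain-family cathepsin (chr19:4855165-4860918), stood at 5.39, 5.61 and 6.05 on the hypoxic arrays, at 4.85, 4.69, 5.52, 5.85, 6.02 and 6.62 on days 1 to 6, and at 7.06, 7.30 and 7.46 on day 7. All 3 day 7 arrays were above every other array, and days 1 and 2 were the lowest. Ctsf was detected on 2 of 3 hypoxic arrays and on 1 of days 1 to 3, so its low values lie near background. On day 7 it was 3-fold higher than in hypoxic culture (1.59 ± 0.20 SE, adjusted p = 0.000424), and it rose by 0.44 ± 0.037 per day (6.61e-05). Its early difference (-0.66 ± 0.20, adjusted p = 0.0252) did not pass without day 1 (0.0643), day 2 (0.104), hypoxic replicate 2 (0.0535) or hypoxic replicate 3 (0.069).

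Ctsh, an aminopeptidase (chr9:90054267-90076095), stood at 10.60, 10.71 and 10.69 in hypoxic culture, at 10.56, 9.72, 9.39, 9.76, 10.28 and 10.22 on days 1 to 6, and at 10.62, 10.79 and 10.40 on day 7. The day 3 array was lowest, day 1 lay just under the hypoxic range, and the day 7 arrays overlapped the hypoxic ones. The early difference was -0.77 ± 0.14 (adjusted p = 0.00254), and that of day 7 was -0.06 (95% interval -0.39 to 0.26, adjusted p = 0.716). Ctsz, a carboxypeptidase, was at 8.61 to 8.65 on days 1 to 3 and at 9.31 to 9.44 in hypoxic culture (-0.74 ± 0.16, 0.00609), and on day 7 differed by -0.07 (-0.44 to 0.30, adjusted p = 0.723). It rose again through the normoxic days, by 0.14 per day, with the limits given above for its slope.

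The endopeptidase Ctsl fell by 0.96 over days 1 to 3 (SE 0.15, adjusted p = 0.00143). On day 7 its difference was -0.48 ± 0.15 (adjusted p = 0.0281), with 7.77 to 8.16 against 8.24 to 8.53 in hypoxic culture, without overlap. That day 7 call was lost without day 7 replicate 1 (0.0757) or 3 (0.0784) or hypoxic replicate 2 (0.0875) or 3 (0.0806). Ctsb, an endopeptidase that can also trim dipeptides from the carboxyl end, was at 13.10 to 13.79 on days 1 to 3 and at 13.85 to 13.90 in hypoxic culture (-0.43 ± 0.12, adjusted p = 0.0165). The day 2 array at 13.10 was the lowest of the 12: without it the early difference was -0.26 (0.139), and without hypoxic replicate 3 the adjusted p was 0.051. On day 7 the Ctsb difference was -0.26 (95% interval -0.53 to 0.02, adjusted p = 0.0964). Ctsc, the dipeptidyl peptidase that activates granule proteases in immune cells, was detected on 8 of 12 arrays and ranged from 5.01 to 6.55, and it passed in none of the 3 comparisons over all arrays. Its day 7 difference was 1.00 within set b and -0.46 within set a, and its slope passed without day 1 (0.17, adjusted p = 0.0494).

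The other lysosomal proteases, 4 of 4 measured, split on day 7 into 3 that fell (33.7% of all genes did) and Ctsd, which rose (25.9%). Tpp1, a serine peptidase that removes tripeptides (chr7:105744811-105752282), stood at 10.28, 9.88 and 10.11 on the hypoxic arrays, at 8.64, 7.95, 8.09, 8.20, 8.62 and 7.53 on days 1 to 6, and at 8.37, 8.10 and 8.41 on day 7. It was low from the day 1 array on, and its slope within normoxic culture was -0.02 per day (adjusted p = 0.778). The day 7 difference was -1.79 ± 0.15 (3.47-fold lower, adjusted p = 8.64e-05), with -1.85 within set a and -1.71 within set b.

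Lgmn, the asparaginyl endopeptidase legumain, which processes several cathepsins (chr12:102394082-102439728), stood at 10.88, 11.43 and 11.29 in hypoxic culture, at 8.98, 9.29, 9.20, 9.91, 10.13 and 9.52 on days 1 to 6, and at 10.10, 9.93 and 10.02 on day 7. Days 1 to 3 were lowest and day 7 lay between these and the hypoxic arrays, with no overlap. The early difference had an adjusted p of 7.15e-05 and that of day 7 was -1.18 ± 0.17 (0.000722), with -1.32 within set a and -1.05 within set b.

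Ctsa, a carboxypeptidase that also shields beta-galactosidase and Neu1 from degradation (chr2:164832872-164841032), stood at 8.67, 9.20 and 9.13 in hypoxic culture, at 8.58, 7.88, 7.51, 8.49, 8.60 and 7.99 on days 1 to 6, and at 8.60, 8.30 and 8.39 on day 7. Every normoxic array was below the lowest hypoxic one, by little on days 1 and 5 and on day 7 replicate 1. The early difference was -1.01 ± 0.18 (adjusted p = 0.00234). The day 7 difference of -0.57 ± 0.18 (adjusted p = 0.026) did not pass without hypoxic replicate 2 (0.0848) or 3 (0.0841), without day 7 replicate 2 (0.0765) or 3 (0.0587), or with the sets as a block (0.0542). A second Ctsa probe detected on all arrays gave -2.14 (adjusted p = 0.000253 over all kept probes) early and -1.37 (0.00175) on day 7, and its other 2 kept probes did not pass in either comparison.

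Ctsd, an aspartic protease (chr7:142375910-142387827), went the other way by day 7. It stood at 7.99, 7.87 and 8.16 in hypoxic culture, at 8.51, 7.68, 7.52, 8.17, 8.27 and 8.77 on days 1 to 6, and at 8.84, 9.20 and 8.76 on day 7. Days 2 and 3 lay below the hypoxic arrays and day 1 above them, so that the early difference was -0.11 ± 0.16 (adjusted p = 0.603). All 3 day 7 arrays lay above the hypoxic ones, by 0.93 ± 0.16 (1.90-fold, adjusted p = 0.00189). The difference was 0.82 within set a, which has 1 hypoxic array, and 0.91 within set b, which has 1 day 7 array.

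The 2 cystatins parted. Cst3, cystatin C, a secreted inhibitor of cysteine cathepsins (chr2:148871722-148875512), stood at 13.34, 13.42 and 13.38 in hypoxic culture, at 12.82, 12.38, 12.46, 12.87, 13.16 and 12.92 on days 1 to 6, and at 13.36, 13.42 and 13.27 on day 7. Days 1 to 6 were all below the hypoxic arrays and the day 7 arrays overlapped them. It fell early (-0.82 ± 0.11, adjusted p = 0.000728), and on day 7 differed by -0.03 (95% interval -0.30 to 0.24, adjusted p = 0.835), but by 0.58 (0.0127) with the common median of probes detected on all arrays. Cstb, cystatin B, a cytosolic inhibitor (chr10:78425670-78427622), was at 13.95 to 14.05 in hypoxic culture, 14.36 to 14.70 on days 1 to 6 and 14.71 to 14.82 on day 7, and so was higher on every normoxic array. It rose early (0.47 ± 0.11, adjusted p = 0.00948) and on day 7 (0.77 ± 0.11, 1.70-fold, 0.000835), though the early value was 0.36 (0.0879) with arrays shifted to a common median.

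Of the 4 glycosidases and the saposin precursor, 4 fell early (29.2% of all genes did) and on day 7 (33.7%), and Gla did not pass in either comparison. Hexa, which splits GM2 ganglioside with the GM2 activator (chr9:59539540-59565109), stood at 11.43, 11.84 and 11.61 in hypoxic culture, at 9.41, 8.71, 9.16, 9.52, 10.09 and 9.67 on days 1 to 6, and at 10.54, 10.55 and 9.99 on day 7. It was lowest on day 2, and every normoxic array lay at least 1 log2 unit under the hypoxic mean. The early difference had an adjusted p of 5.63e-05, the day 7 difference was -1.27 ± 0.19 (2.41-fold lower, 0.00109), and Hexa rose by 0.22 ± 0.050 per day in between (0.00638).

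Psap, the precursor of the saposins that present lipids to these enzymes (chr10:60277628-60302600), stood at 13.87, 13.90 and 13.68 in hypoxic culture, at 13.24, 12.57, 12.70, 12.55, 12.94 and 12.54 on days 1 to 6, and at 12.76, 12.57 and 12.62 on day 7. It lay below the hypoxic range on every normoxic array and did not return: the early difference was -0.98 ± 0.13 (adjusted p = 0.000535) and that of day 7 was -1.17 ± 0.13 (2.25-fold lower, 0.000219). A second Psap probe gave -1.01 and -1.26.

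Glb1, beta-galactosidase (chr9:114401078-114474379), stood at 10.24, 10.08 and 10.12 in hypoxic culture, at 9.20, 8.68, 8.94, 9.31, 9.70 and 9.04 on days 1 to 6, and at 9.10, 9.40 and 9.36 on day 7. Its early difference was -1.21 ± 0.13 (adjusted p = 0.000255) and that of day 7 was -0.87 ± 0.13 (0.00107). Neu1, a sialidase (chr17:34931253-34937297), stood at 10.90, 11.15 and 11.08 in hypoxic culture, at 9.92, 9.83, 10.14, 10.49, 10.62 and 10.11 on days 1 to 6, and at 10.49, 10.42 and 10.51 on day 7. Both enzymes, which form a complex with Ctsa, were below the hypoxic range on all normoxic arrays and lowest on day 2. For Neu1 the differences were -1.08 ± 0.12 (adjusted p = 0.000289) early and -0.57 ± 0.12 (0.00521) on day 7.

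Gla, alpha-galactosidase A (chrX:134588169-134601005), was detected on 4 of 12 arrays. It stood at 4.89, 4.72 and 5.87 in hypoxic culture, at 4.82, 4.58, 4.76, 5.18, 5.19 and 5.52 on days 1 to 6, and at 6.00, 6.25 and 5.48 on day 7. Hypoxic replicate 3 was high for its group and lay among the day 7 arrays. The day 7 difference was 0.75 ± 0.33 (adjusted p = 0.0901), and it passed without hypoxic replicate 3 (1.11, 0.0104) or without day 7 replicate 3 (0.97, 0.0472). Across the normoxic days Gla rose by 0.22 ± 0.041 per day (adjusted p = 0.00279), from values at which days 1 to 3 were not detected.

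Of the 5 membrane and cholesterol-handling genes, 4 fell early (29.2% of all genes did) and 3 on day 7 (33.7%). Lamp1, a glycoprotein that lines the lysosomal membrane (chr8:13159161-13175338), was at 13.26 to 13.46 in hypoxic culture, at 12.33 to 12.85 on days 1 to 6 and at 12.41 to 12.53 on day 7. It was lower on every normoxic array, early (-0.69 ± 0.12, adjusted p = 0.00226) and -0.85 ± 0.12 on day 7 (0.000689), though the day 7 value was -0.32 (0.0686) with the common median of probes detected on all arrays. Lamp2, its relative needed for chaperone-mediated autophagy in one splice form (chrX:38399647-38456460), was at 12.81 to 12.98 in hypoxic culture and 12.35 to 12.66 on day 7. Its early difference was -0.58 ± 0.13 (adjusted p = 0.00722). The day 7 call (-0.39 ± 0.13, adjusted p = 0.0339) was lost without hypoxic replicate 1 (0.082) or 3 (0.104) or day 7 replicate 1 (0.106) or 2 (0.0667), and the difference was 0.15 (0.36) with the common median of probes detected on all arrays.

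Mcoln1, the mucolipin calcium channel of the lysosome (chr8:3500519-3515232), stood at 8.27, 8.47 and 8.81 in hypoxic culture, at 7.81, 6.69, 7.21, 7.87, 7.69 and 7.80 on days 1 to 6, and at 7.92, 8.19 and 7.95 on day 7. Day 2 was lowest, and the day 7 arrays came close under the hypoxic ones. The early difference was -1.28 ± 0.17 (adjusted p = 0.00065). The day 7 call (-0.49 ± 0.17, adjusted p = 0.0389) was lost without hypoxic replicate 2 (0.0757) or 3 (0.117) and without day 7 replicate 1 (0.102) or 3 (0.0889).

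Npc2, the soluble lysosomal protein that hands cholesterol to Npc1 (chr12:84754559-84773112), stood at 11.74, 11.23 and 11.65 in hypoxic culture, at 10.54, 10.48, 10.74, 11.22, 11.72 and 11.51 on days 1 to 6, and at 11.72, 11.96 and 11.92 on day 7. It was low on days 1 to 3 and within or above the hypoxic range from day 5. The early difference was -0.95 ± 0.17 (adjusted p = 0.00241), the slope was 0.25 ± 0.032 per day (0.000449), and the day 7 difference was 0.33 (95% interval -0.07 to 0.72, adjusted p = 0.132), or 0.76 (0.00472) with the common median of probes detected on all arrays.

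For Npc1, the membrane protein that exports cholesterol from lysosomes (chr18:12189694-12236506), the probes disagreed. The probe used stood at 9.29, 9.17 and 9.35 in hypoxic culture, at 9.59, 9.54, 9.58, 9.91, 9.70 and 9.82 on days 1 to 6, and at 9.36, 9.41 and 9.42 on day 7. Every normoxic array was above the hypoxic range by a small step, and neither difference passed (0.30, adjusted p = 0.056 early, and 0.13, 0.355 on day 7). The other 2 kept probes fell, with early differences of -1.36 (0.0111) and -1.29 (0.000235) and day 7 differences of -1.33 (0.0112) and -1.22 (0.000261), and the mean over the 3 probes was -0.81 (0.00275) on day 7. No direction is given here for Npc1.

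Other genes with more than 1 kept probe moved one way more often. Of the 6 Lamp2 probes kept, 5 fell early, from -0.58 to -1.60, and the sixth was at -0.12, while on day 7 the probe used was the only one past the threshold and 3 others had risen over the normoxic days by 0.19 to 0.29 per day. The second Ctsz probe fell early (-1.20, adjusted p = 0.000729) and so did that of Ctsh (-0.65, 0.0036). The files do not say which transcript of a gene each probe reads.

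**Figure D3:**
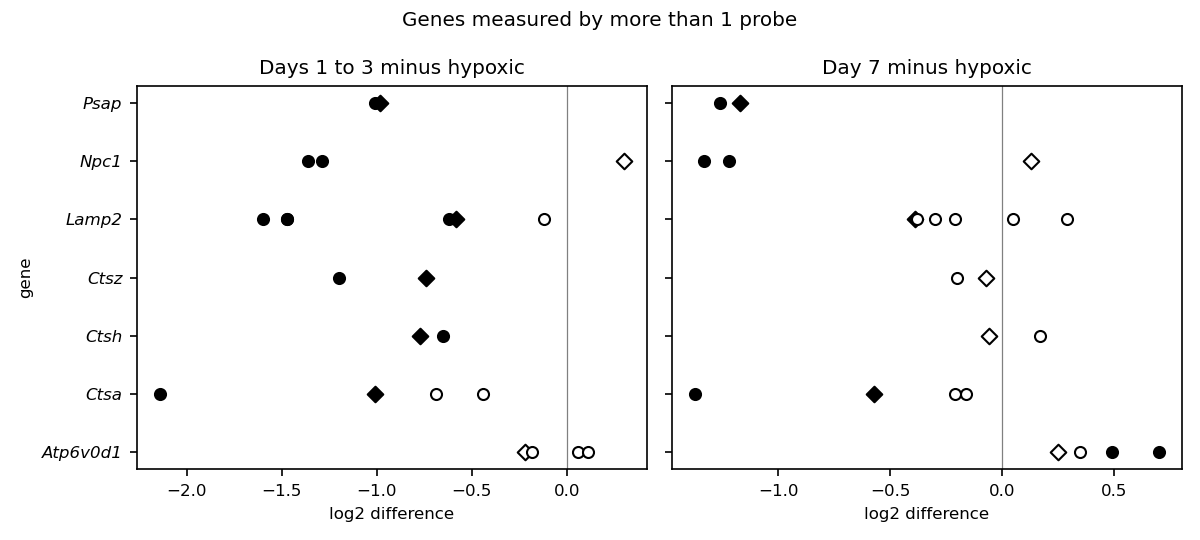
Points are the kept probes of genes with more than 1, as log2 difference from hypoxic culture for days 1 to 3 and for day 7. Diamonds mark the probe used and circles the others, and filled points passed the threshold. The other 2 Npc1 probes lie between -1.22 and -1.36 where the probe used lies above 0.

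Neither proton pump subunit was called as falling. Atp6v1h, subunit H of the cytosolic sector, was at 10.98 to 11.26 in hypoxic culture and at 11.44 to 11.71 on all normoxic arrays, with no overlap. It rose early (0.53 ± 0.13, adjusted p = 0.0118) and on day 7 (0.46 ± 0.13, 0.0194), but the day 7 call was lost without hypoxic replicate 1 (0.0607) or 3 (0.0633) or day 7 replicate 1 (0.0558) or 3 (0.0536). Atp6v0d1, subunit d of the membrane sector (chr8:105524461-105566064), stood at 10.84, 10.71 and 10.63 in hypoxic culture, at 10.72, 10.35, 10.45, 10.92, 10.98 and 10.75 on days 1 to 6, and at 10.85, 11.04 and 11.06 on day 7. Days 2 and 3 lay below the hypoxic arrays and the day 7 arrays just above, and neither difference passed (-0.22, adjusted p = 0.177, and 0.25, 0.12). Of its other 3 kept probes, 2 rose on day 7 (0.70, adjusted p = 0.00257, and 0.49, 0.025).

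Sqstm1, or p62, which tethers ubiquitinated cargo to autophagosomes (chr11:50200152-50210820), stood at 12.27, 12.73 and 12.67 in hypoxic culture, at 10.91, 11, 11.55, 11.74, 12.15 and 11.34 on days 1 to 6, and at 11.93, 11.94 and 11.57 on day 7. All normoxic arrays were below the hypoxic ones, with days 1 and 2 lowest and day 5 closest. It fell early (-1.41 ± 0.18, 2.65-fold, adjusted p = 0.000476) and on day 7 (-0.75 ± 0.18, 0.00813), the latter to -0.29 (0.229) with the common median of probes detected on all arrays.

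Beyond these genes, 133 further lysosomal and autophagy genes were listed in 7 groups, and 104 were measured. On day 7, 48 fell and 17 rose (33.7% and 25.9% of all genes), with a median of -0.33 against -0.11 for all genes. Over days 1 to 3, 52 fell and 8 rose (29.2% and 25.6% of all genes), with a median of -0.45 against -0.06. Of 24 other hydrolases, 14 fell and 2 rose early, and 13 fell and 2 rose on day 7. Idua, which trims heparan and dermatan sulfate, had the largest fall on day 7 (-2.39 ± 0.23, adjusted p = 0.000127) and Dnase2a, the acid DNase of lysosomes, the largest rise (1.11 ± 0.14, 0.000403). Of 16 other membrane proteins, 8 fell and 3 rose on day 7, from Slc17a5, the sialic acid exporter (-1.94 ± 0.29, adjusted p = 0.000925), to the tetraspanin Cd63 (0.54 ± 0.12, 0.00523).

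The 17 other proton pump subunits counted 5 falls and 4 rises on day 7, near the shares of all genes (33.7% and 25.9%). Atp6v1c2, an isoform of subunit C, stood at 5.48, 6.09 and 5.89 in hypoxic culture, between 9.56 and 10.61 on days 1 to 6, and at 9.51, 9.71 and 9.50 on day 7. It was high from the day 1 array on (3.75 ± 0.18 on day 7, 13.5-fold, adjusted p = 1.49e-05). The largest fall was that of Atp6v0a1, an isoform of subunit a (-1.20 ± 0.14, adjusted p = 0.000296). Among 4 other proteases and cystatins 2 rose on day 7 and 0 fell. Ctsw, a cathepsin known from cytotoxic lymphocytes, was not detected on any hypoxic array and was detected on all 9 normoxic ones, and on day 7 was at least 4.15-fold higher (adjusted p = 8.93e-05), its dim group set at the lowest signal of detected probes. Of 7 named lymphocyte markers 1 was measured, and the list had a summed level of 4.79 to 5.03 in hypoxic culture and 4.93 to 4.99 on day 7.

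The counts that follow for day 7 stand beside 33.7% falls and 25.9% rises among all genes. Of 12 sorting genes, 6 fell and 1 rose, the lowest being Igf2r, the receptor for the sugar tag of lysosomal enzymes (-1.39 ± 0.11, adjusted p = 6.56e-05), and the riser Vps29, a subunit of the retromer that returns such receptors to the Golgi (1.23 ± 0.14, 0.000236). Of 12 genes of TFEB and of the kinase complex that restrains it, 7 fell and 3 rose. Tfeb was not detected in hypoxic culture and did not pass (0.50, adjusted p = 0.351), and Tfe3 fell (-0.41 ± 0.15, 0.0418). Rragd, a GTPase that brings that kinase to lysosomes, fell (-1.96 ± 0.27, adjusted p = 0.000641). It was detected on 3 hypoxic arrays and on 1 of day 7, so its low values lie near background and the size of its fall is uncertain. Mtor rose by its brightest probe (2.24 ± 0.14, adjusted p = 2.85e-05), but not with the mean over its kept probes (0.32, 0.0593). Of 19 autophagy genes, 11 fell and 0 rose early (29.2% and 25.6% of all genes), and 9 fell and 2 rose on day 7. At the ends on day 7 were Ulk1, the initiating kinase (-1.91 ± 0.13, adjusted p = 3.54e-05), and Gabarapl2, a protein of the autophagosome membrane (1.34 ± 0.32, 0.00909).

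Markers of other cell types were read beside these counts, as signals summed over each list. Macrophages are rich in lysosomes: of 18 named macrophage markers 3 were measured, and the probes of 8, among them Adgre1, Tyrobp, C1qa, C1qb and C1qc, were detected on no array. The summed macrophage level was 5.73 to 5.97 in hypoxic culture, 6.04 to 7.51 on days 1 to 6 and 6.93 to 7.19 on day 7. Cd14, the only macrophage marker on all arrays, rose (1.87 ± 0.18 on day 7, adjusted p = 0.000134). With a day 7 mean of 10.87, against 5.36 for Mpeg1 and 4.64 for Lyz1, Cd14 carried most of that sum. Neither Mpeg1 (0.31, adjusted p = 0.356) nor Lyz1 (-0.34, 0.276) passed on day 7, though Mpeg1 rose over days 1 to 3 (0.96, 0.0193). Of 9 listed fibroblast markers 6 were measured, and of these 5 rose and 1 fell on day 7 (25.9% and 33.7% of all genes). Col1a1, Col3a1 and Pdgfrb were detected on 0 hypoxic arrays and passed the filter through normoxic arrays alone. The count of rises therefore depends in part on that filter. Lum and Fap were detected on fewer than 3 arrays and Thy1 on 0. The summed level of the fibroblast list was 5.76 to 6.04 in hypoxic culture, 5.99 to 8.46 on days 1 to 6 and 7.94 to 8.07 on day 7. Mammary epithelial markers had summed levels of 12.51 to 12.65 in hypoxic culture, 12.61 to 13.22 on days 1 to 6 and 12.16 to 12.23 on day 7. Of 9 measured, 3 rose and 2 fell over days 1 to 3, where 25.6% of all genes rose and 29.2% fell. On day 7, 5 fell and 1 rose, where 33.7% of all genes fell and 25.9% rose. The part of these shifts in the lysosomal gene counts was not tested.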

How the data were processed

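Gene expression in mouse iTICs was read on 12 arrays of 1 colour. Per the file headers, the deposited table pairs log2 signals with detection p-values for 45281 probes. Array medians differ (6.74 to 6.94), and what normalization preceded deposit, if any, is not stated. Scanner software: not given in the sources used here. Deposited p-value columns carry no sample names and did not belong to the signals beside them, so each was matched to the signal column it orders exactly. The authors' processed table, also log2 with p-values, holds 6 of the arrays under names that conflict in 5, and was only compared: neqc values differed by at most 0.0236.

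Signals were made linear and processed with neqc (limma 3.58.1, R 4.3.3; normexp background with detection p-values, offset 16, quantile normalization, log2). A probe was kept with detection p below 0.05 on at least 3 arrays, and each gene took its kept probe with the highest mean. GEO's platform annotation gave gene names (34885 probes with 1 symbol, 18 with several, 10378 unnamed), with positions from RefSeq GRCm38.p6. limma fitted 8 group means (4 residual degrees of freedom) and a slope over the 9 normoxic arrays (7), with Benjamini-Hochberg adjustment over 10365 genes. Rose and fell mark an adjusted p below 0.05. Days 1 to 3 are taken to vary like the triplicates. Summed marker levels are log2 of the mean linear signal over a list's named genes, each by a kept probe where it has one and otherwise its brightest.

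The genes and lists were chosen with earlier results of these data known. By rule, values on every array were given for genes past a threshold with a log2 change of at least 1, or a slope of at least 0.2 per day, and for the smallest day 7 change of each role; of other lists, the largest rise and fall on day 7 were named, and Tfeb, Tfe3, Ctsd, Ctsw's marker list and a few further genes were named after their values were seen. Same-numbered hypoxic and day 7 arrays had deviations that correlated at 0.03, 0 and 0.06. No pairing by number was seen, but with 3 arrays per group such values cannot exclude it. Precision is limited by the number of arrays. Promoters were searched with Python 3.11.15 and pandas 2.3.3.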

Additional observations from a re-analysis of the deposited data

How the results depend on the processing

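Over 17 alternatives for each contrast and 18 for the slope (1 fewer for Ctsc, Ctsf and Gla, which are not detected on all arrays), 19 of 25 genes kept direction and call throughout for days 1 to 3, 4 for day 7 and 2 for the slope. Leaving out 1 array gave 5485 to 5943 genes called on day 7, 4990 to 5820 for days 1 to 3 and 2723 to 3750 for the slope. Of the lysosomal genes, 8 to 11 then fell and 3 to 4 rose on day 7, 16 to 18 fell and 2 rose over days 1 to 3, and 5 to 10 rose and 0 fell in slope. With the replicate block 6000 genes were called on day 7, and 4 lysosomal genes rose and 9 fell, with Ctsa (adjusted p = 0.06), Lamp2 (0.0555) and Mcoln1 (0.053) lost.

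With a shift to a common median, 1 gene rose over days 1 to 3 and 5 in slope, and signs turned for Cst3 (0.19) and Npc1 (-0.25) on day 7 and for the slopes of Ctsa (-0.03), Glb1 (-0.01) and Idua (-0.04). With the common median of probes detected on all arrays, 8 rose on day 7 and 14 in slope. Signs turned there for Ctsb (0.24), Ctsh (0.10), Cst3 (0.58) and Lamp2 (0.15) on day 7 and for the slopes of Psap (0.02), Lamp1 (0.04), Atp6v1h (0.03) and Rragd (0.02). The share of rises among slope calls was 46.5%, and 24.6% and 56.2% in these scalings. With the mean over kept probes, signs turned for Ctsh (0.05) and Npc1 (-0.81) on day 7, for Npc1 (-0.78), Dnase2a (-0.23) and Cd63 (-0.10) over days 1 to 3, and for the slope of Mtor (-0.03).

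With the sets as a block 2096 genes had a slope and 4 lysosomal genes rose, and slopes turned for Ctsb (-0.02) and Rragd (0.02). Within set a, 2626 genes were called on day 7, with 1 lysosomal gene up and 3 down, and 3 genes and 0 lysosomal genes had a slope. There, Ctsc (-0.46) turned on day 7 and so did the slopes of Ctsb (-0.17), Ctsa (-0.08), Lgmn (-0.01), Glb1 (-0.03), Neu1 (-0.03), Sqstm1 (-0.05) and Rragd (0.01). Within set b, 6 fell on day 7, 0 rose over days 1 to 3, 335 genes and 1 lysosomal gene had a slope, Ctsz (0.25) turned on day 7 and Rragd (0.02) in slope. These fits have fewer arrays, and the slopes and early days within sets were chosen after seeing the data.

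Leaving out 1 array moved some values across 0: on day 7 those of Ctsc (-0.08 to 0.48), Ctsh (-0.16 to 0.04), Ctsz (-0.21 to 0.05) and Cst3 (-0.07 to 0.01), early that of Ctsd (-0.41 to 0.09), and the slopes of Tpp1 (-0.05 to 0.03), Psap (-0.07 to 0.01), Rragd (-0.06 to 0.09), Ctsb (-0.02 to 0.06) and Idua (-0.04 to 0.17). Causes of these changes were not tested. Without a filter on dim probes 5865 of 19057 genes were called on day 7. Of the 25 genes, Ctsc, Ctsf and Gla lie near background, so their differences are the least certain.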
